A study of Mus musculus with 8 samples.

Results

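Desmosomes are spot-like junctions that tie the keratin filaments of neighbouring epithelial cells together. Their cadherins, the desmogleins (Dsg) and desmocollins (Dsc), bridge the gap between cells. Inside the cell the armadillo proteins plakoglobin (Jup) and plakophilin (Pkp) bind the cadherin tails, and desmoplakin (Dsp) links this plaque to the filaments. Hepatocytes are joined by desmosomes that hold desmoglein 2 and desmocollin 2, whereas desmoglein 1 is best known from the upper layers of the epidermis, where it is the target of autoantibodies in pemphigus foliaceus. The mouse carries 3 closely related desmoglein 1 genes, Dsg1a, Dsg1b and Dsg1c, in place of the single human gene.

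Expression of 8 desmosome genes, namely Dsg1c, Dsg1a, Dsg1b, Dsg2, Dsc2, Dsp, Jup and Pkp2, was followed in mouse liver. Dsg1c was selected on its measured knockout minus wild-type difference, which was positive, and the other 7 genes because they encode desmosomal cadherins and plaque proteins. All 8 were measured among 22180 genes with a single symbol in the array's annotation. Where a gene had several rows in the table, the row of the highest mean over the 8 arrays stood for it, which applied to Dsg2. The knockout minus wild-type difference thus helped to choose the set, and for these 8 genes it is given as a description, with no p-value and nothing read from whether it passed a threshold.

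Livers came from 8 mice of strain C57BL/6N taken at 27 days of age, each on its own array. The 4 knockout mice had the genotype Albumin-Cretg/wt:Sco1fl/fl, that is 1 copy of a Cre transgene under the hepatocyte promoter of albumin together with 2 floxed alleles of the gene for Sco1, a copper chaperone for cytochrome c oxidase. Among the 4 wild-type mice, mice 1 and 3 carried Albumin-Cretg/wt:Sco1fl/wt, with Cre and 1 floxed allele, and mice 2 and 4 carried Albumin-Crewt/wt:Sco1fl/fl, with 2 floxed alleles and no Cre. The titles name all 4 as floxed without Cre. Whether all other cells of the liver keep Sco1 was not measured, and no treatment is given in the labels.

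Values are log2 expression values, on which a difference of 1 unit is a doubling. Array medians lay between 5.79 and 5.89. Sco1 was lower in every knockout array (7.48 to 7.72) than in any wild-type array (7.84 to 8.19). The difference of -0.41 ± 0.09 missed the threshold over all genes (limma, adjusted p = 0.0633), while an exact permutation test of this gene alone gave a two-sided p of 0.0286, the smallest that 4 against 4 allow. The 9 measured hepatocyte markers were bright in both groups, albumin (Alb) averaging 13.85 and 13.84. None of the 9 passed the limma test. Several, Alb among them, lay near the highest value of the table, 13.88, where a rise could hardly show. Knockout mouse 4 stood apart in 3 Y-linked genes, at 7.23 to 7.49 against 8.40 to 9.02 on all other arrays. Its Xist value, 5.01, was within the range of the other arrays, and the labels give no sex. The differences of the 8 genes, the Aqp4 call and the list counts are therefore also given without this array.

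Dsg1c was the one cadherin gene of the set whose groups separated. It was measured at 8.72, 7.91, 8.17 and 8.88 log2 units in knockout mice 1 to 4, and at 7.03, 6.63, 6.93 and 6.28 in wild-type mice 1 to 4. Every knockout liver lay above every wild-type liver, with a gap of 0.88 between the lowest knockout and the highest wild-type value. The group means were 8.42 ± 0.46 and 6.72 ± 0.34 (SD, n = 4 each), a difference of 1.70 ± 0.22 (limma SE) or 3.25-fold. That was the fifth largest positive difference among all genes. The mice also differed among themselves: the range was 0.97 within the knockout group and 0.75 within the wild-type group, and the SD within groups exceeded that of 98.6% of all genes. Without knockout mouse 4 the difference was 1.55, and with any 1 array left out it lay between 1.55 and 1.87. RNA of whole liver cannot tell more expressing cells from more RNA per cell.

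The neighbouring paralogs Dsg1a and Dsg1b showed no such separation. Dsg1a stood at 5.24, 4.80, 4.57 and 4.70 in knockout mice 1 to 4 and at 4.92, 4.78, 4.80 and 4.86 in wild-type mice 1 to 4. The knockout values lay on both sides of the wild-type values, with mouse 1 highest in each group, and the difference was -0.01 ± 0.13 (95% interval -0.30 to 0.27). For Dsg1b the knockout values were 4.38, 5.28, 4.46 and 4.87, and the wild-type values 4.70, 4.72, 4.61 and 4.46. Knockout mouse 2 was the highest and knockout mouse 1 the lowest of all 8, and the difference of 0.13 ± 0.17 (95% interval -0.25 to 0.51) turned to -0.05 without knockout mouse 2. All values of both genes were below the array medians. The 3 genes are similar in sequence, and which probes could read more than 1 of them is not given in the sources used here.

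The desmosomal cadherins known from hepatocytes, Dsg2 and Dsc2, overlapped between the groups. Dsg2 was measured at 10.17, 10.33, 10.37 and 10.52 in knockout mice 1 to 4 and at 10.41, 10.39, 10.39 and 10.33 in wild-type mice 1 to 4. The wild-type livers fell inside the knockout range, and the difference was -0.03 ± 0.09 (95% interval -0.22 to 0.16). A second row annotated to Dsg2, far dimmer, averaged 6.02 and 6.00 in the 2 groups. Dsc2 stood at 9.95, 9.41, 9.77 and 9.77 in the knockout livers and at 9.77, 9.58, 9.54 and 9.55 in the wild-type livers. Knockout mouse 2 was the lowest of all 8 and knockout mouse 1 the highest. The difference was 0.12 ± 0.11 (95% interval -0.13 to 0.37).

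**Figure D1:**
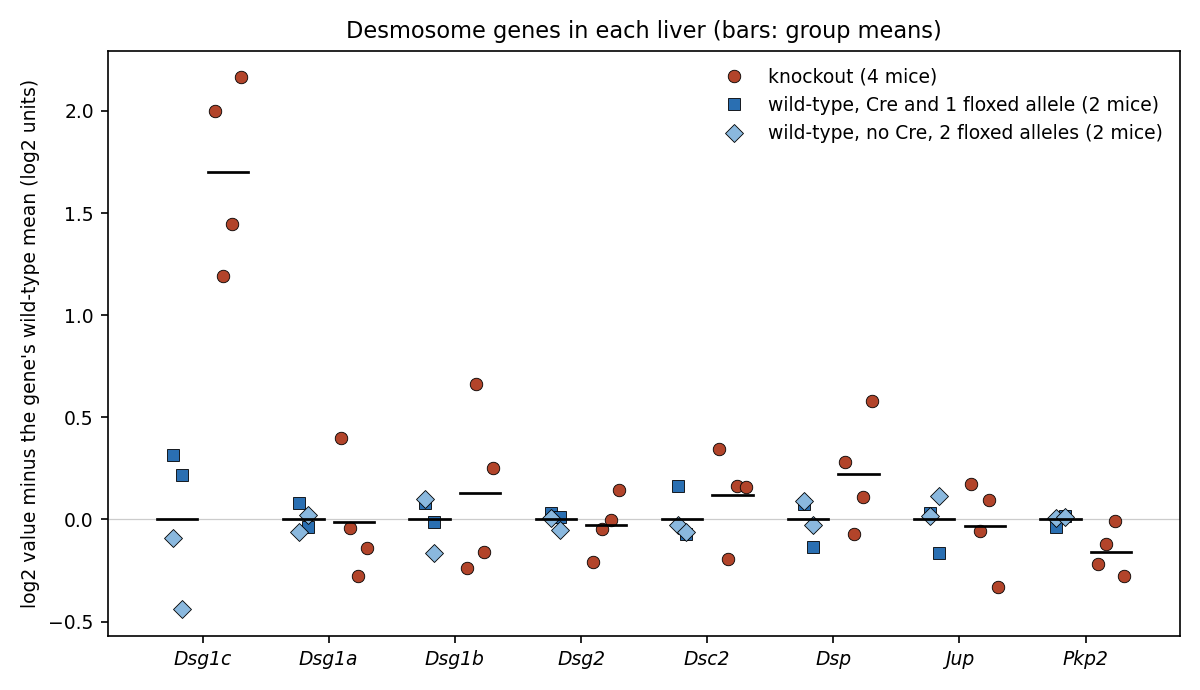
Log2 value of each of the 8 desmosome genes in each liver, minus that gene's wild-type mean, with knockout mice as circles, Cre-carrying controls as squares, Cre-free controls as diamonds and bars at group means. The 4 Dsg1c circles lie clear of all controls, while in the other 7 genes the groups overlap.

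Among the plaque proteins, desmoplakin, the link to keratin, had the widest positive difference and plakophilin 2, which gathers desmoplakin at the junction, the widest negative one. Dsp was measured at 9.98, 9.63, 9.81 and 10.28 in knockout mice 1 to 4 and at 9.78, 9.79, 9.56 and 9.67 in wild-type mice 1 to 4. Of the knockout livers 3 were above all wild-type livers, and mouse 2 was not. The difference of 0.22 ± 0.13 (95% interval -0.06 to 0.50) was 0.11 without knockout mouse 4. The knockout mice ranked in the same order, mouse 4, then 1, 3 and 2, for Dsp and for Dsg1c, whereas the wild-type mice did not. In the wild-type group Dsg2 shared the order of Dsg1c, mouse 1, then 3, 2 and 4, and the knockout mice did not. Orders of 4 mice can match by chance, and these matches were not tested.

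Pkp2 stood at 9.13, 9.22, 9.34 and 9.07 in the knockout livers and at 9.31, 9.35, 9.36 and 9.36 in the wild-type livers. Knockout mouse 3 lay within the narrow wild-type range and the other three lay below it, a difference of -0.16 ± 0.08 (95% interval -0.33 to 0.02). Plakoglobin, shared by desmosomes and adherens junctions, was measured at 9.62, 9.39, 9.54 and 9.12 in knockout mice 1 to 4 and at 9.48, 9.47, 9.29 and 9.56 in wild-type mice 1 to 4. The values of Jup were mixed between the groups, with knockout mouse 4 the lowest, and the difference was -0.03 ± 0.11 (95% interval -0.28 to 0.22), or 0.07 without knockout mouse 4.

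In counts, 1 of the 8 genes, Dsg1c, was past an adjusted p of 0.05 in the limma fit over all genes, against 1.15% of all genes (96 higher and 159 lower, or 60 and 230 with each array centred on its median). The groups did not overlap for 1 of 8, against 10.7% of all genes. Since the knockout difference chose Dsg1c, nothing is read from these counts. The differences of the other 7 ran from -0.16 to 0.22 with a median of -0.01, beside a median of 0.03 over all genes. Their 95% intervals all reached both sides of 0, and the highest upper bound was 0.51, for Dsg1b. Without knockout mouse 4 the 7 differences ran from -0.12 for Pkp2 to 0.11 for Dsp.

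**Figure D2:**
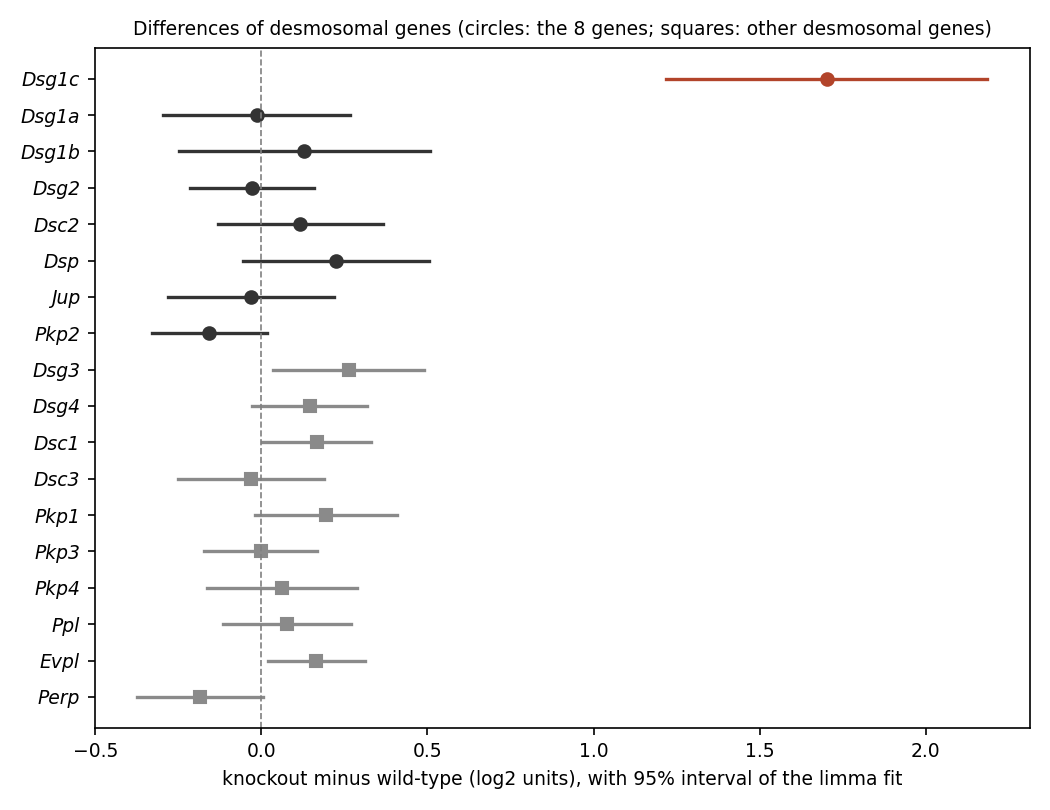
Knockout minus wild-type difference in log2 units with its 95% limma interval for the 8 genes (circles) and 10 further desmosomal genes (squares), 4 mice a group. Dsg1c, chosen for its difference, lies at 1.70, and all other points lie between -0.18 and 0.26.

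The spread between mice was wider in the knockout group for each of the 8 genes, a measure the choice of genes did not use. The ratio of the knockout SD to the wild-type SD was above 1 in 8 of 8, against 58.8% of all genes, and its median was 3.02 against 1.17 over all genes. It ran from 1.34 for Dsg1c to 4.81 for Pkp2. Among 10 further desmosomal genes it was above 1 in 3. A wider knockout spread was not particular to the 8 desmosome genes. Of the genes above the median level 64.7% had a ratio above 1. So did each of the 8 enzymes listed below that act on desmosomal proteins, while the adherens junction list held genes of both kinds. With each array left out in turn the knockout spread stayed wider in 7 or 8 of the 8 genes, and in all 8 without knockout mouse 4, against 51.6% of all genes there. The extremes came from different mice: knockout mouse 4 was the highest of its group for Dsg1c, Dsg2 and Dsp and the lowest for Jup and Pkp2, while knockout mouse 1 was the highest for Dsg1a, Dsc2 and Jup. With 4 mice a group and genes measured on the same arrays, these ratios are a description.

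The controls allow a comparison that played no part in the choice of genes, that of wild-type mice with and without Cre, which also differ by 1 floxed allele. Dsg1c was at 7.03 and 6.93 in the Cre-carrying controls and at 6.63 and 6.28 in the Cre-free controls. Both Cre-carrying livers were higher, and the difference was 0.53 ± 0.28 (SE; 95% interval -0.09 to 1.15). It did not pass (limma with 3 groups, p = 0.086, adjusted p = 1.0), and an exact test of 2 against 2 cannot go below p = 0.333. A difference of this size or more was found in 0.78% of all genes. The classes did not overlap for 2 of the 8 genes, Dsg1c and Dsg2, against 30.7% of all genes. With all 8 arrays, none of the 8 genes passed even at an unadjusted p of 0.05. The SE of this comparison draws on the spread of all 8 arrays, including the knockout arrays, whose spread was wider. Without knockout mouse 2, Dsg1c had an unadjusted p of 0.041 (limma with 3 groups). The difference between the control classes stayed at 0.53 there, and only its SE fell, to 0.22. With 1 control array left out that difference ran from 0.36 (without wild-type mouse 4) to 0.70 (without wild-type mouse 2). Over all genes 0.0% were called after Benjamini-Hochberg adjustment, and 671 had an unadjusted p under 0.05. Dsg1c in knockout livers exceeded the Cre-carrying controls by 1.44 ± 0.24 and the Cre-free controls by 1.97 ± 0.24. These differences share the knockout arrays.

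The desmosomal genes outside the set were measured for all 10 listed, and none passed the limma test with Benjamini-Hochberg adjustment, while 3 had an unadjusted p under 0.05, as did 16.7% of all genes. Their median difference was 0.11, with 7 above 0 and 3 below, beside 0.03 over all genes. The groups did not overlap for 3 of them, against 10.7% of all genes: Dsg3, the desmoglein of deep epidermal layers, Dsc1, the desmocollin of the upper epidermis, and envoplakin, Evpl, a plakin of the cornified envelope. Dsg3 averaged 5.10 ± 0.07 against 4.84 ± 0.21 (SD over 4 mice), a difference of 0.26 ± 0.10 (adjusted p = 0.237). Dsc1 averaged 4.76 against 4.59, and Evpl 6.71 against 6.54, with adjusted p of 0.293 and 0.246. Dsg3 and Dsc1, like Dsg4 (4.73 against 4.59) and Dsc3 (4.94 against 4.97), lay below the array medians. The plakophilins gave differences of 0.195 ± 0.097 for Pkp1, -0.002 ± 0.077 for Pkp3 and 0.06 ± 0.10 for Pkp4. Periplakin, Ppl, differed by 0.08 ± 0.09, and Perp, a membrane protein of desmosomes, by -0.18 ± 0.09 (adjusted p = 0.313).

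The genes of the desmosomal cadherins lie side by side on chromosome 18, in the order Dsc3, Dsc2, Dsc1, Dsg1c, Dsg1a, Dsg1b, Dsg4, Dsg3 and Dsg2 by the RefSeq annotation of GRCm38.p6. Of these 9 genes, the neighbours on either side of Dsg1c, Dsc1 and Dsg1a, differed by 0.17 and -0.01. Beyond the cluster, 10 protein-coding neighbours were measured, 5 on each side, and 1 fell and none rose. This was Aqp4, a water channel, at 7.31, 7.06, 7.34 and 7.53 in knockout mice 1 to 4 and at 7.93, 7.98, 7.90 and 7.86 in wild-type mice 1 to 4. All knockout livers were below all wild-type livers, and Aqp4 fell by 0.61 ± 0.10 (limma, adjusted p = 0.0185, and 0.0103 to 0.191 under the 17 other settings tried). The call was lost without wild-type mouse 2 (adjusted p = 0.0607) and against either control class alone, and was kept without knockout mouse 4 (-0.68 ± 0.09, adjusted p = 0.0164). Ttr, the transthyretin gene next to Dsg2, stood at 13.65 and 13.66, near the highest value of the table, 13.88, where a rise could hardly show. Cdh2, the N-cadherin gene on the other side, averaged 11.32 and 11.27. The other 7 neighbours did not pass, with differences from -0.16 for Rnf125 to 0.19 for Taf4b.

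The filaments and junctions that work beside desmosomes were tested from lists of named genes. Of 7 simple keratins none passed (median -0.05). Krt8 and Krt18, the keratin pair of hepatocytes, averaged 11.06 and 11.02 in knockout against 11.21 and 11.20 in wild-type livers. Krt23, a keratin induced in stressed liver, stood at 5.28 to 5.74 against 5.96 to 6.63, with no overlap, and did not pass (difference -0.60 ± 0.15, adjusted p = 0.0885). None of 13 adherens junction genes passed (median 0.0045). Their smallest adjusted p was that of the alpha-catenin relative Ctnnal1, at -0.24 ± 0.09 (adjusted p = 0.231).

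Tight junction genes were measured for 20 of 21 listed and none passed (median -0.07). Patj, a scaffold of the Crumbs polarity complex, was lowest by p, at 6.90 against 7.18 (difference -0.28 ± 0.07, adjusted p = 0.101), and its groups did not overlap. Of 6 gap junction genes none passed (median 0.05), the hepatocyte connexin Gjb1 standing at -0.22 ± 0.11 (adjusted p = 0.333). Of 8 proteases, kinases and other enzymes that act on desmosomal proteins none passed (median 0.03). Prkca, a protein kinase C gene, stood at 0.40 ± 0.14 (adjusted p = 0.195) and passed without knockout mouse 2 (0.57 ± 0.09, adjusted p = 0.0299). The proteases of cadherin shedding Adam10 and Adam17 differed by 0.06 and -0.03. Of 10 measured epithelial transcription factors none passed (median 0.04). Grhl1, which is known to bind the desmoglein 1 promoter in skin, differed by 0.08 ± 0.09, and Klf5 by 0.13 ± 0.11 (adjusted p = 0.571).

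**Figure D3:**
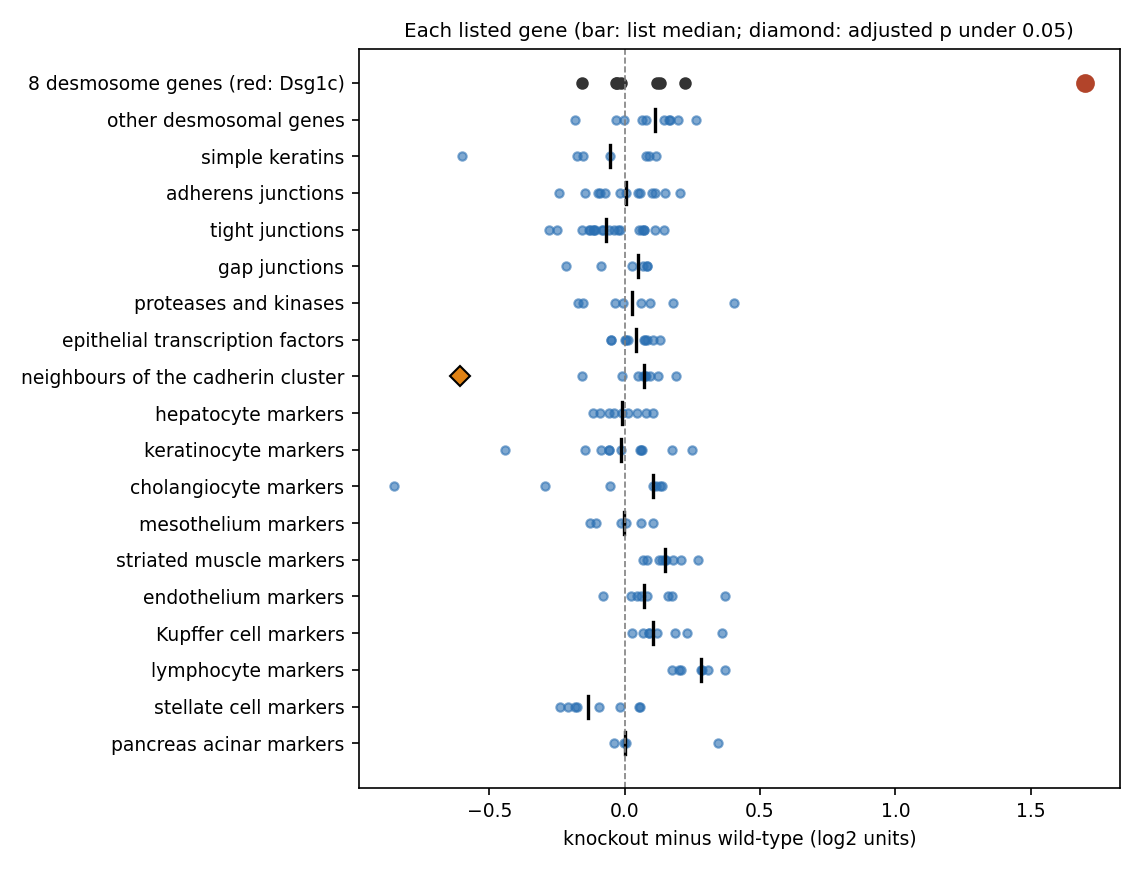
Knockout minus wild-type difference in log2 units of each gene of each list, with the list median as a bar and a diamond for the gene past an adjusted p of 0.05. Dsg1c lies at 1.70 and the 157 other listed genes between -0.85 and 0.40, with Aqp4 as the diamond.

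Markers of other cell types that make desmoglein 1 or desmosomes were set beside Dsg1c. Of 11 measured keratinocyte markers none passed (5 positive and 6 negative differences, median -0.02). The mean log2 level of the list on each array was 6.15 to 6.24 in the knockout livers and 6.19 to 6.26 in the wild-type livers. The basal keratin gene Krt14 averaged 5.26 and 5.32, loricrin, Lor, 5.99 and 5.93, and Tgm1, a transglutaminase of the cornified envelope, differed by -0.44 ± 0.17 (adjusted p = 0.232). Of 7 measured cholangiocyte markers none passed (median 0.10). Their mean level was 6.22 to 6.46 against 6.33 to 6.55, and the smallest adjusted p was that of Prom1, at -0.85 ± 0.23 (adjusted p = 0.104). None of 6 mesothelium markers passed either (median -0.004), with a mean level of 6.53 to 6.76 against 6.27 to 6.93 and a smallest adjusted p of 0.722 for Upk1b. For these 3 marker lists the groups overlapped.

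In 2 marker lists the mean log2 level of every knockout array was above that of every wild-type array. The mean level of 7 measured lymphocyte markers was 6.04 to 6.33 against 5.83 to 5.95, a gap of 0.09, all 7 with positive differences (median 0.28), none past the threshold. The smallest adjusted p was that of Cd3e, at 0.37 ± 0.12 (adjusted p = 0.155). Heart muscle is rich in desmosomal proteins. The mean of 9 heart and skeletal muscle markers was 5.82 to 6.00 against 5.64 to 5.81, a gap of 0.0096. That gap is smaller than the range of the array medians, 5.79 to 5.89, and 4 of the 9 markers averaged above the highest median. All 9 had positive differences (median 0.15) and none was past the threshold. On the summed linear level the groups overlapped for the muscle list and not for the lymphocyte list. Acta1 had the smallest adjusted p of the muscle list (0.27 ± 0.13, adjusted p = 0.323). Without knockout mouse 4 the gaps were 0.09 for the lymphocyte list and 0.03 for the muscle list. Their part in the Dsg1c difference was not tested.

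The remaining lists held no call. Of 8 endothelial markers none passed (median 0.07), Lyve1 standing at 0.37 ± 0.14 (adjusted p = 0.212). Their mean log2 levels overlapped between the groups, while their summed linear levels were higher in every knockout array. Of 8 Kupffer cell markers none passed, all 8 with positive differences (median 0.10), and their mean log2 levels overlapped between the groups. Cd68 stood at 0.36 ± 0.09 (adjusted p = 0.0921), and its groups did not overlap. None of 8 stellate cell markers passed (median -0.14; Reln at -0.18 ± 0.09, adjusted p = 0.332). Neither did any of 4 measured pancreatic acinar markers (median 0.0005; Ctrb1 at 0.35 ± 0.14, adjusted p = 0.245), nor a hepatocyte marker (median -0.01; Fgb at -0.09 ± 0.07, adjusted p = 0.525). Over all lists together, 1 of 157 measured genes of these lists was called, Aqp4, beside 1.15% of all genes, and likewise 1, Aqp4, without knockout mouse 4. The groups did not overlap for 13 of the 157, beside 10.7% of all genes.

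The genes whose profile came closest to that of Dsg1c were found from the root mean square difference between profiles over the 8 arrays, each centred on its own mean. Rragd, a GTPase of the lysosomal mTORC1 pathway, was nearest at 0.26 log2 units. Gpnmb, a transmembrane glycoprotein, followed at 0.33, the annexin gene Anxa8 at 0.36, the sulfotransferase gene Sult1c2 at 0.38 and Cd63, a tetraspanin of late endosomes, at 0.42. Since Dsg1c separated the groups, nearness of this kind selects genes that are higher in the knockout, and it was not tested.

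Rragd was measured at 7.59, 6.90, 7.58 and 7.94 in knockout mice 1 to 4 and at 6.14, 6.16, 6.21 and 5.93 in wild-type mice 1 to 4. As with Dsg1c, knockout mouse 4 was highest and knockout mouse 2 lowest of the knockouts, and wild-type mouse 4 was lowest of all. Rragd was picked for nearness over these same 8 arrays, which favours a like order of mice, so nothing is read from it. Of the other desmosome genes Dsp came nearest to Dsg1c, at 0.78, and Pkp2 was farthest, at 1.01.

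**Figure D4:**
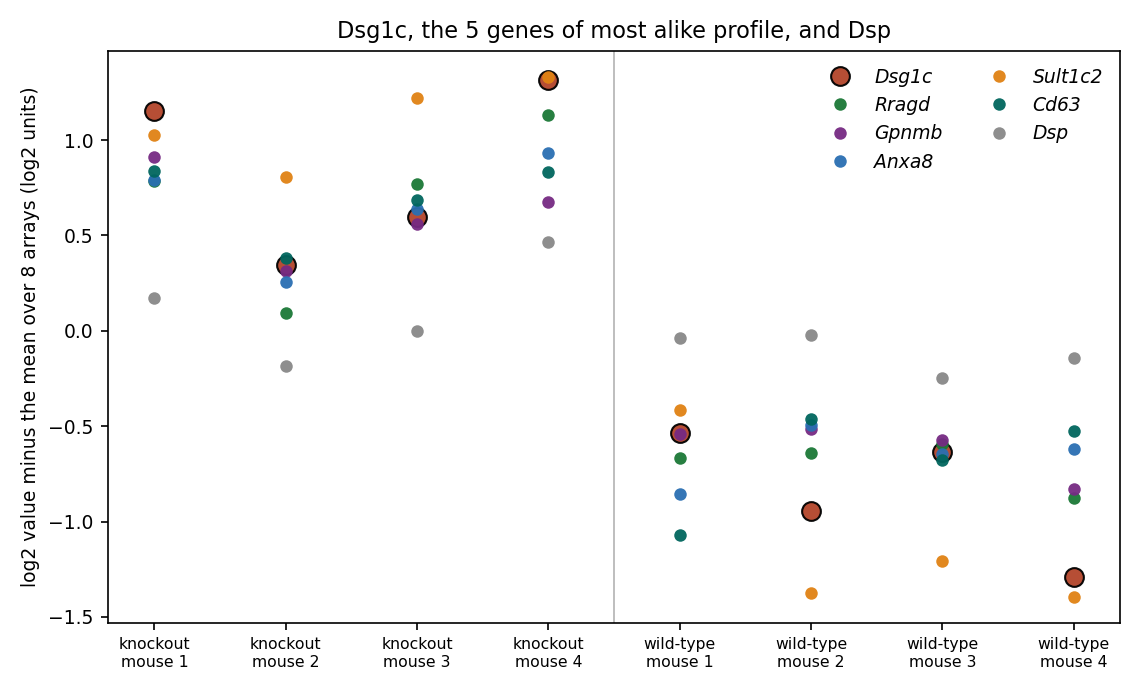
Log2 value minus the mean over 8 arrays for Dsg1c (large circles), its 5 nearest genes by profile and Dsp (grey), by mouse. Dsg1c and the 5 genes lie above 0 in every knockout mouse and below 0 in every wild-type mouse, while Dsp lies on both sides of 0 in the knockout mice.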

How the data were processed

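Total RNA of 8 livers was hybridised to Affymetrix whole-transcript arrays, per the labels' protocols. The deposited log2 values were made by the authors with the RMA method of oligo 1.24, per the submitters' processing notes: background is corrected, arrays are equalised by quantiles and probes are summarised, which pulls large differences toward 0. The log2 scale was inferred from the method and the range (1.28 to 13.88). The chip definition and genome build are not given in the sources used here. Of 39137 rows, 23521 had 1 gene symbol in the platform annotation, 1814 several and 13802 none, and 23328 of the named rows matched the reference gene table by gene number.

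Groups came from the titles and control classes from the genotype labels. Nothing in the labels says more of how mice were drawn, so p-values refer to these 8 mice. The limma p-values set a group difference against the spread between mice within groups, which limma moderates over all genes. Differences are knockout minus wild-type from the two-sided lmFit and eBayes test of limma (3.58.1, R 4.3.3), adjusted by Benjamini-Hochberg over 22180 genes, threshold 0.05. The step was tested on simulated data. The members and lists were chosen with earlier results of these data known. Named are the 8 genes, Sco1, 10 further desmosomal genes, every listed gene past the threshold and the smallest adjusted p of each list, the 5 nearest profiles (predicted, RIKEN, small RNA and pseudogene symbols left out) and neighbours of the cluster. Krt8, Krt18, Krt14, Lor, Alb, Grhl1, Adam10 and Adam17 fall outside that rule and were chosen after their values were seen. Mouse numbers were not used to pair the groups in the main fit. The number of arrays limits the precision. Python version 3.11.15, pandas version 2.3.3 and matplotlib version 3.10.9 were used.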

Additional observations from a re-analysis of the deposited data

Results flagged for a closer look

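A single array lay far from the other three of its group in 4 of the 50 groups of 4 checked, about 1 in 20 being flagged by chance. The measure is the gap to the nearest array as a share of the group's range, set against Dixon's critical value. Pkp2 in wild-type mouse 1 (9.31, against 9.35 to 9.36 in the other wild-type mice) reached 0.838, over a range of only 0.05 log2 units. Dsc3 was highest in mouse 1 of both groups: knockout mouse 1 (5.15, against 4.84 to 4.89) reached 0.831 and wild-type mouse 1 (5.19, against 4.87 to 4.90) reached 0.902. Gpnmb in wild-type mouse 4 (5.25, against 5.51 to 5.57) reached 0.8292.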

How the results depend on the processing

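The Dsg1c difference kept its direction in all 17 alternatives, from 1.44 against Cre-carrying controls alone to 1.97 against Cre-free controls alone, and those of Dsc2, Dsp and Pkp2 also kept theirs. Signs of Dsg1a, Dsg1b, Dsg2 and Jup changed in some. The count of the 8 genes called was 1 in 16 alternatives and 0 against Cre-carrying controls alone. As the gene counted, Dsg1c, was chosen for its difference, neither this count nor its direction is a sign of stability. No member was called after adjustment between control classes in any of 14 alternatives, though Dsg1c had an unadjusted p of 0.041 without knockout mouse 2 (limma with 3 groups). The 255 genes called became 459 with a trended robust variance, 442 among genes above the median level, 16 against Cre-free controls alone, 6 against Cre-carrying controls alone, and 91 to 175 with 1 array left out. The 1 listed gene called became 0 against either control class alone and 0 to 2 with 1 array left out. With mouse number as a replicate block 210 genes, 1 of the 8 and 3 listed genes (Aqp4, Krt23 and Prom1) were called. Same-numbered mice correlated in their deviations at -0.10 to 0.27, and different-numbered mice at -0.15 to 0.12. The value of 0.27, the highest of all pairs, was that of mouse 1. Whether the 2 mice of that number shared a factor was not tested, and the labels state no pairing. Leaving out arrays in the comparisons of spread and of list levels was chosen after seeing the data. The cause of these shifts was not tested. Some of the settings also held fewer arrays or genes. Without a detection call, signal over background is unknown for the dim genes.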
